A study of Mus musculus with 9 samples.

Results

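The genes described are 7 members of the renin-angiotensin system, Agt, Ace, Agtr1a, Agtr2, Agtrap, Mas1 and Lnpep. A member was measured by a transcript cluster, a set of probes read as 1 gene or transcript, whose only gene symbol in the platform annotation is that member. Of the 65534 clusters on the array, 6 served, 1 for each of Agt, Ace, Agtr1a, Agtr2, Agtrap and Mas1, and Lnpep was not analysed here. The members were selected on these data: the choice went with the measured levels of Agt, high on the remote-zone arrays of replicates 1 and 2. Agt is therefore given below as a description with no test, and the other 5 measured members were tested.

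The samples came from the left ventricle of 3 male mice of the C57BL/6J strain (C57BL/6 in the strain label), 8 weeks old, with no transgene named. In every mouse the left anterior descending coronary artery was ligated for 45 min and the heart was reperfused for 24 h. Each of 3 zones gave 3 samples, with 1 array per sample. They are the ischemia zone (IZ), the border zone around it (BZ) and the non-ischemia zone farther away (NIZ). All zones were therefore cut from operated hearts, and NIZ is remote tissue of those hearts, not tissue of a sham-operated animal. The labels do not say which replicate number belongs to which mouse, so p-values measure only the spread between these samples. Values are log2 expression levels after RMA, and a difference of 1 is a 2-fold change. The labels name heart as the source but carry a tissue tag that reads brain. The 10 cardiomyocyte markers averaged 11.56 to 11.94 on the 9 arrays, against array medians of 4.19 to 4.29. The oligodendrocyte, neuron and astrocyte markers averaged 5.45 to 5.63, 4.96 to 5.28 and 5.04 to 5.28. Single members of these lists differed, with the myelin gene Mbp at 5.54 on each array, Olig1 at 7.01 to 7.51 and Stmn2 at 6.22 to 7.65.

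The system makes angiotensin peptides from 1 precursor. Renin cuts angiotensinogen (Agt), angiotensin-converting enzyme (Ace) cuts the product to angiotensin II, and angiotensin II acts mainly through the AT1 receptor (Agtr1a in most mouse tissues), which raises vascular tone, aldosterone release and, in heart, hypertrophy and matrix deposition. The AT2 receptor (Agtr2) and the angiotensin-(1-7) receptor Mas1 are generally described as opposing these actions, and Agtrap binds the AT1 receptor and promotes its internalisation. Most circulating angiotensinogen is made by the liver, with further production in brain astrocytes and adipose tissue.

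Agt, the precursor, was the member with the widest range over the arrays. Its level was 6.59, 6.16 and 6.24 in IZ replicates 1, 2 and 3. In BZ it was 6.17, 6.16 and 6.05, and in NIZ it was 7.59, 7.34 and 6.10. NIZ replicates 1 and 2 thus lay above every other array, while NIZ replicate 3 lay within the BZ values. The zone means were 6.33 ± 0.23 in IZ, 6.13 ± 0.07 in BZ and 7.01 ± 0.80 in NIZ (SD, n = 3 each). Agt in NIZ was 1.60-fold its IZ mean and 1.84-fold its BZ mean, and all zones overlapped. The IZ-minus-NIZ difference was -0.68 and the BZ-minus-NIZ difference was -0.88. Without NIZ replicate 3 they were -1.13 and -1.33, and without NIZ replicate 1 they were -0.39 and -0.59. The lower of the NIZ values of replicates 1 and 2 stood 0.745 log2 above the highest of the other 7 arrays. A gap of this kind above 0 was seen for 5.10% of all clusters. One at least as large as that of Agt was seen for 181 of the 65534 clusters, Agt among them, which is a description only.

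**Figure D1:**
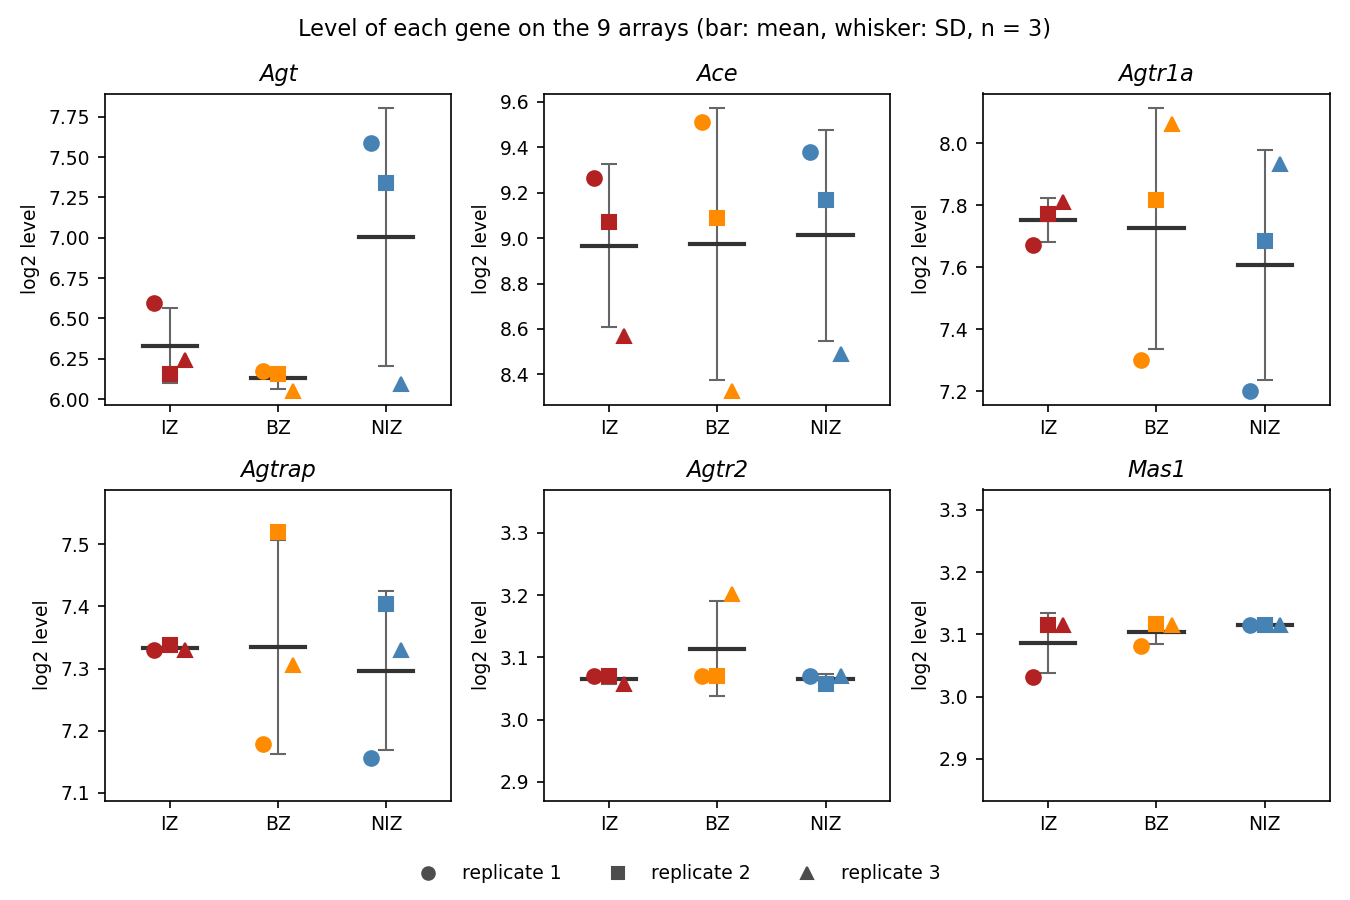
Log2 level of the 6 measured genes (y axis, own scale in each panel) in IZ, BZ and NIZ (x axis). Each symbol is 1 array with its replicate number, the bar is the zone mean and the whisker the SD (n = 3). Agt is high on 2 NIZ arrays, at 7.59 and 7.34, while Ace is lowest on the replicate 3 array of every zone.

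The promoter of Agt is shown beside that of Ptbp2, a neuronal splicing regulator, because Ptbp2 was the protein-coding gene among the 5 named genes whose pattern over the arrays was most like that of Agt (r = 0.962 over 9 arrays). The windows hold 250 bases before and 50 after the start, from RefSeq on GRCm38.p6, for Agt chr8:124569657-124569956 (minus strand) and for Ptbp2 chr3:119783339-119783638 (minus strand). Capitals mark the TATA box (TATAAA) in Agt and GC boxes (GGGCGG) in Ptbp2, searched on both strands, and neighbouring GC boxes may overlap.
Agt: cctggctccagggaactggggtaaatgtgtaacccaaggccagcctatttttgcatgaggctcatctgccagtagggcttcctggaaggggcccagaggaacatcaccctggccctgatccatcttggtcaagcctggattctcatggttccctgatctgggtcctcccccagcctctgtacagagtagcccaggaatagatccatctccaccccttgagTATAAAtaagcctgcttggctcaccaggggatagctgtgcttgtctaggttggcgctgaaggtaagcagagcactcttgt
Ptbp2: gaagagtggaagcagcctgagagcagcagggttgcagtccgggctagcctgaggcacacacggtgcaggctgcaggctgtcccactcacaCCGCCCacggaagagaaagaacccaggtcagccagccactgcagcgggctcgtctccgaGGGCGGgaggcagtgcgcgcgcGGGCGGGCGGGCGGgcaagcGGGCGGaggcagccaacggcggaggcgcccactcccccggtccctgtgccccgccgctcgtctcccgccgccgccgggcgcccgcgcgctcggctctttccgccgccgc
The TATA box of Agt starts 30 bases before the start of transcription, and Ptbp2 has none. Ptbp2 holds 6 GC boxes, Agt holds none, and neither holds the CCAAT box, the last motif searched. Of the 32851 RefSeq promoters, 13.6% hold the TATA box, 35.7% the GC box and 37.4% the CCAAT box. The GC content was 54.7% for Agt and 74.7% for Ptbp2. Of the other members, Ace (first start) also holds a TATA box, on the opposite strand and 31 bases before the start, with 4 GC boxes. Agtr2, Agtrap and Mas1 do not hold the exact letters TATAAA in this window, and variants of the TATA box were not searched. These matches describe the letters only.

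Few named protein-coding genes stood apart on the same arrays as Agt. Ptbp2 read 7.28, 7.26 and 7.21 in IZ, 7.28, 7.11 and 7.15 in BZ, and 7.90, 7.70 and 7.25 in NIZ. A gap of at least 0.5 log2 between the lower of NIZ replicates 1 and 2 and the highest other array was found for 217 clusters. These clusters hold 104 distinct profiles. Of the 217, 145 have 1 gene symbol, and 6 were named protein-coding genes. The 6 genes were Agt (0.745), Zfp52 (0.524), Btg3 (0.519), Timp3 (0.514), Aldh1a3 (0.509) and Per2 (0.504). Timp3 is an inhibitor of metalloproteinases, Aldh1a3 makes retinoic acid, and Per2 is a component of the circadian clock. Agt was the 1 named protein-coding cluster among the 181 clusters with a gap at least as large as its own. Clusters with several gene symbols or none were not named, and Agt was selected on these levels.

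Most of the clusters with such a gap were small nucleolar RNAs (snoRNAs), of which 137 lay on chromosome 7. All of these 137 lie within the bounds of Snhg14 in RefSeq, the long host transcript of an imprinted snoRNA array that is known mainly from neurons. The array's region holds 170 snoRNA clusters with 1 gene symbol. Their sequences are near-identical copies, so single clusters of the family are uncertain. The median level of the 137 was 5.35, 5.71 and 2.53 in NIZ replicates 1, 2 and 3, and it lay between 2.53 and 2.81 in IZ and BZ. The other 4 clusters most like Agt were members of this family, namely Gm26200 (r = 0.973), Gm25823 (0.967), Gm25194 (0.963) and Gm22391 (0.963). The likeness was computed over 9 arrays that share 1 normalization, among 2822 clusters with at least 0.5 of Agt's range, and a pattern of 2 high arrays sets most of each value. Snhg14 itself read 2.89 and 3.19 in NIZ replicates 1 and 2, against 2.66 to 2.72 elsewhere.

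Markers of the tissues that make angiotensinogen were read on the same arrays. None of the 7 liver, 7 adipocyte and 8 astrocyte markers measured was highest in NIZ replicates 1 and 2, nor was any of the 6 neuron and 7 oligodendrocyte markers. Many of these markers hardly varied. The median range over the arrays was 0.10 log2 for astrocyte, 0.17 for neuron, 0.24 for adipocyte and 0.24 for oligodendrocyte markers. It was 0.62 for liver markers. Where a marker hardly varied, low expression and a lack of detection cannot be told apart. The summed signal of the liver list was 557.5 to 905.3 in NIZ, 729.2 to 908.8 in BZ and 607 to 957.5 in IZ. Single liver transcripts differed among themselves. Alb, serum albumin, was at 7.23 and 7.73 in NIZ replicates 1 and 2 and between 7.77 and 9.10 on the other arrays. Ahsg, a liver plasma glycoprotein, was at 7.81 and 8.92 in NIZ replicates 1 and 2, at 6.95 in NIZ replicate 3 and between 6.89 and 8.25 in IZ and BZ, so NIZ replicate 2 was its highest array. For astrocytes the sum was 342.2 to 426.1 in NIZ, 392 to 463.8 in BZ and 411.5 to 419.3 in IZ, with Gfap at 5.08 on all arrays but BZ replicate 3 (5.17). This sum rests largely on Slc4a4 (6.56 to 7.30), Gja1 (6.42 to 6.92) and Aqp4 (5.56 to 6.21), while the rest of the list did not exceed 5.17. Whether these genes read astrocytes in this tissue was not tested. Adipoq, made by adipocytes, was at 3.42 on each NIZ array. Over all marker lists, Pecam1, Emcn, Acta2 and Lcn2 had their highest values in NIZ replicates 1 and 2, by less than 0.5 log2. NIZ replicate 2 alone of the Agt-high arrays stood apart in atrial markers, with a list mean of 8.56 against 6.72 to 7.83 on the other arrays, while NIZ replicate 1 was at 6.82. Sln was at 10.91 and Myl7 at 10.15 there, against at most 8.78 and 8.07 elsewhere. In bulk tissue fewer cells of a type and less RNA per cell cannot be told apart, and the part that cell makeup has in the Agt values was not tested beyond these lists.

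**Figure D2:**
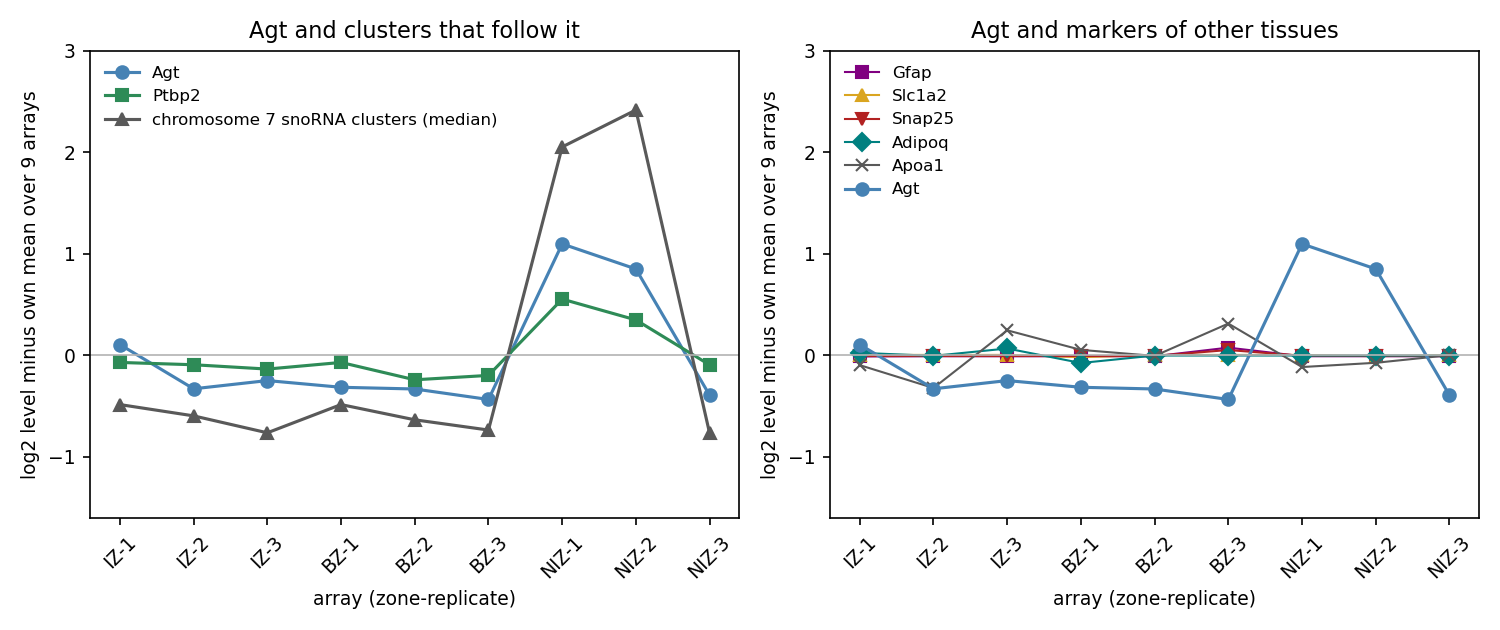
Log2 level minus each item's own mean over the 9 arrays (y axis) against array (x axis). Left, Agt, Ptbp2 and the median of 137 chromosome 7 snoRNA clusters; right, Agt with markers of astrocytes (Gfap, Slc1a2), neurons (Snap25), adipocytes (Adipoq) and liver (Apoa1). The snoRNA median and Ptbp2 are high on the same 2 NIZ arrays as Agt, and the 5 markers plotted are not. Gfap, Slc1a2, Snap25 and Adipoq hardly vary, so low expression and a lack of detection cannot be told apart for them. Ahsg, the liver marker highest in NIZ replicate 2 (8.92), is not plotted.

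Ace, the enzyme that forms angiotensin II and degrades bradykinin, differed by replicate number and not detectably by zone. Its level was 9.26, 9.07 and 8.57 in IZ, 9.51, 9.09 and 8.33 in BZ, and 9.38, 9.17 and 8.49 in NIZ. The replicate 3 array was the lowest and the replicate 1 array the highest in all 3 zones. The zone means were 8.97 ± 0.36, 8.98 ± 0.60 and 9.01 ± 0.46 (SD, n = 3). The differences were -0.05 for IZ minus NIZ (95% interval -0.87 to 0.77), -0.04 for BZ minus NIZ (-0.86 to 0.78) and -0.01 for IZ minus BZ (-0.83 to 0.81). Averaged over zones, Ace was 9.38 on the replicate 1 arrays, 9.11 on the replicate 2 arrays and 8.46 on the replicate 3 arrays. Replicate number held 95.4% of the variation of Ace over the 9 arrays and zone held 0.249%. Over all clusters with any spread the medians were 27.9% and 23.7%, and 0.0965% of clusters had a replicate-number share as large as that of Ace. This share was looked up after the values of Ace were seen and has no test.

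The mesothelial and cardiomyocyte marker lists also separated by replicate number, but they rose from replicate 1 to 3 while Ace fell. The mean of the 8 mesothelial markers was 5.24 to 5.52 on the replicate 1 arrays, 5.68 to 6.07 on the replicate 2 arrays and 6.19 to 6.92 on the replicate 3 arrays. The mean of the 10 cardiomyocyte markers was 11.56 to 11.72, 11.81 to 11.85 and 11.88 to 11.94 in the same order. Not every list did so. The neutrophil mean was 7.95, 8.00 and 8.72 in IZ replicates 1, 2 and 3, against 9.62, 8.37 and 6.34 in NIZ. Ace is made largely by endothelium. The 7 endothelial markers averaged 9.17, 9.04 and 9.31 on the replicate 3 arrays of IZ, BZ and NIZ, and 9.17, 9.11 and 9.33 on the replicate 1 arrays, but the members went both ways. Pecam1, Cdh5 and Esam were lower on replicate 3 than on replicate 1 in all 3 zones, as Ace was, with Pecam1 at 9.57, 9.24 and 9.59 against 9.68, 9.68 and 10.04. Vwf was higher on replicate 3 in all 3 zones. What part these lists have in the values of Ace was not tested. The clusters most like Ace were those of Pdlim5, a cytoskeletal scaffold of the Z-disc (r = 0.988), and Fads3 (r = 0.985), of 5068 compared.

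**Figure D3:**
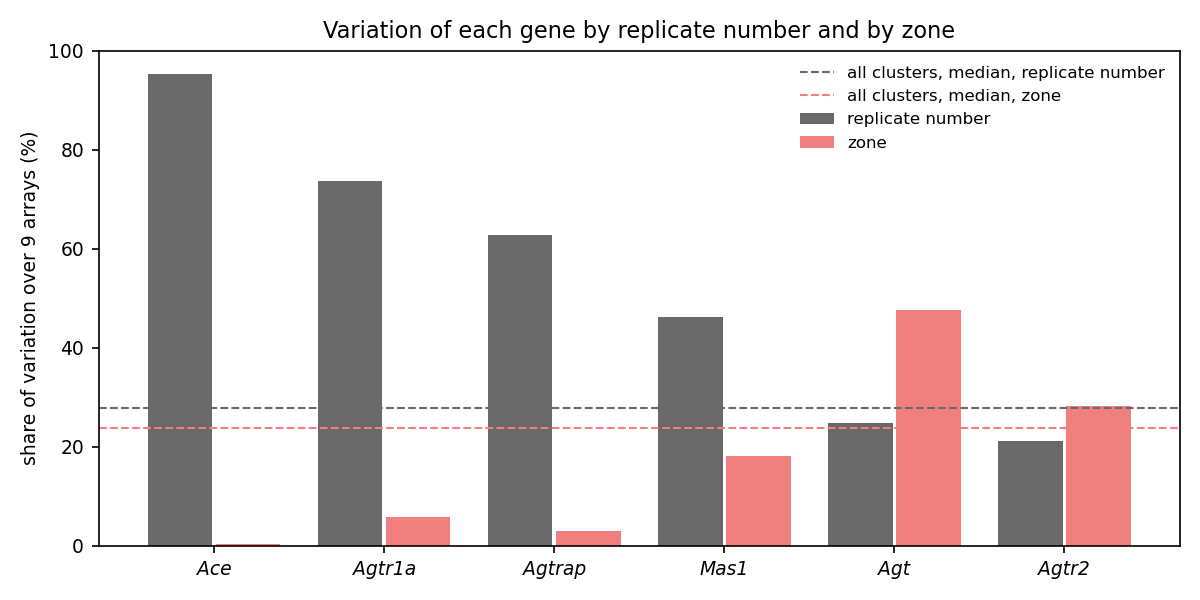
Share of the variation over the 9 arrays (y axis, percent) held by replicate number (dark bars) and by zone (light bars) for each gene, with dashed lines at the medians of all clusters (27.9% and 23.7%). Ace, Agtr1a and Agtrap stand far above the line for replicate number, and Agt has the highest bar for zone. Agt was selected on these levels, so its zone bar is a description only.

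Agtr1a, the main AT1 receptor, read 7.67, 7.77 and 7.81 in IZ, 7.30, 7.82 and 8.06 in BZ, and 7.20, 7.68 and 7.93 in NIZ. Replicate 1 was the lowest array in every zone, and the zones overlapped. The means were 7.75 ± 0.07, 7.73 ± 0.39 and 7.61 ± 0.37 (SD, n = 3). The IZ-minus-NIZ difference was 0.15 (95% interval -0.39 to 0.68), the BZ-minus-NIZ difference 0.12 (-0.41 to 0.65) and the IZ-minus-BZ difference 0.03 (-0.51 to 0.56). Replicate number held 73.7% of the variation and zone 5.8%. On the arrays where Agtr1a was lowest, BZ and NIZ replicate 1, the summed signal of the 8 neutrophil markers was highest, at 9518 and 8964, and it was 1289 and 1093 in BZ and NIZ replicate 3, where Agtr1a was highest. In IZ both were highest on replicate 3, with neutrophil sums of 3200, 3219 and 5994 in replicates 1, 2 and 3. The mesothelial and cardiomyocyte marker means rose from replicate 1 to 3 in every zone, as Agtr1a did. The part of any of these lists in the values of Agtr1a was not tested.

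The cluster most like Agtr1a, of 9504 compared, was that of Nr3c2, the mineralocorticoid receptor, through which aldosterone acts (r = 0.982 over 9 arrays). Nr3c2 read 6.55, 6.75 and 6.78 in IZ, 6.23, 6.67 and 7.11 in BZ, and 5.94, 6.67 and 6.89 in NIZ. Both receptors were at their lowest in NIZ replicate 1 and at their highest in BZ replicate 3. The next was Car15, a carbonic anhydrase (r = 0.981). Agtr1b, the closely related second mouse AT1 receptor gene, averaged 6.12 in IZ, 6.13 in BZ and 6.16 in NIZ, and probes that read both copies would not tell them apart.

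Agtrap, the AT1 receptor-associated protein, had a range of 0.36 over the arrays, close to the median range of 0.339 over all clusters. It read 7.33, 7.34 and 7.33 in IZ, 7.18, 7.52 and 7.31 in BZ, and 7.16, 7.40 and 7.33 in NIZ. In BZ and NIZ replicate 1 was lowest and replicate 2 highest. The differences were 0.04 for IZ minus NIZ (95% interval -0.18 to 0.25), 0.04 for BZ minus NIZ (-0.18 to 0.26) and -0.00 for IZ minus BZ (-0.22 to 0.22). Replicate number held 62.8% of its variation. Its closest clusters were those of Nfe2l1, a transcription factor of proteasome genes (r = 0.969), and Ccni (r = 0.955), of 23406 compared.

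Agtr2 and Mas1, the receptors of the opposing arm among the members, gave almost no variation. Agtr2 read 3.07 on 6 arrays and reached its highest value, 3.20, in BZ replicate 3. Mas1 read 3.11 on 6 arrays, with its lowest value, 3.03, in IZ replicate 1. Both lay below the array's own median on all 9 arrays, while Agt, Ace, Agtr1a and Agtrap lay above it on all 9. A range of 0.14 for Agtr2 and 0.09 for Mas1 compares with a median range of 0.339 over all clusters. The differences lay between -0.05 and 0.05, and the 95% intervals lay within -0.15 to 0.14 for Agtr2 and within -0.11 to 0.07 for Mas1. Whether these 2 clusters were above background was not analysed here, so low expression and a lack of detection cannot be told apart.

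No tested member passed the test in any comparison, which asks whether the injured zones differed from remote myocardium and from each other. Adjusted p over all clusters from limma was 1.0 for all 5 members in IZ against NIZ, 0.864 to 0.994 in BZ against NIZ and 0.943 to 1.0 in IZ against BZ. The background is as low, since 0% of all clusters passed at an adjusted p of 0.05 in each of the 3 comparisons. At an unadjusted p of 0.05, 0 of the 5 members passed in any comparison, against 3.96%, 5.28% and 3.84% of all clusters. Zones without overlap were found for 0 of the 5 members, against 6.33%, 6.23% and 5.77% of clusters in the same order. The methods' test was run here as Bonferroni-corrected pairs of zones, with the spread pooled over the 3 zones, and also called 0 of the 5. The one-way analysis of variance that precedes these pairs in the methods was not run. Exact two-sided permutation tests of single members gave p = 0.6 to 1.0 in 15 tests, each 1.0 after adjustment, where 3 arrays against 3 cannot go below 0.1. These intervals do not show that the levels were alike. They come from a model without a block, so the spread between replicate numbers is part of their width. With the replicate block the Ace interval was -0.26 to 0.19 in BZ against NIZ and -0.27 to 0.18 in IZ against NIZ, and that of Agtr1a was -0.19 to 0.43 and -0.16 to 0.45, with no member called.

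**Figure D4:**
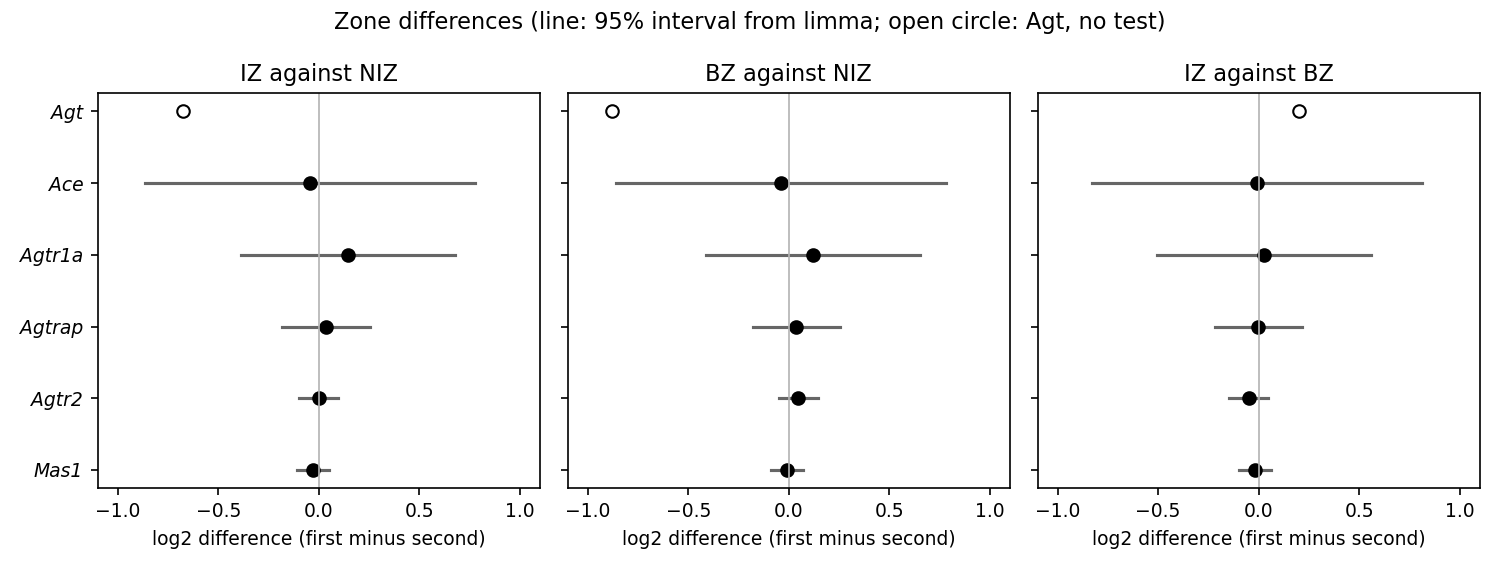
Log2 difference between zones (x axis, first minus second) for each gene (y axis) in the 3 comparisons. Filled circles carry the 95% interval from limma, and open circles are Agt, given without a test. Every interval spans 0, and that of Ace is the widest.

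The wider system was read from 6 lists of 58 genes, of which 50 had a cluster of their own, and 0 were called in any comparison. Unadjusted p under 0.05 was reached by 2 of the 50 in IZ against NIZ, 6 in BZ against NIZ and 3 in IZ against BZ, which is 4%, 12% and 6% beside the 3.96%, 5.28% and 3.84% of all clusters. Zones did not overlap for 1, 4 and 6 of the 50, or 2%, 8% and 12%, beside 6.33%, 6.23% and 5.77%. Ren1 and Ren2 were not analysed here, so renin, the first enzyme, is missing from what follows. IZ and BZ were compared with the same NIZ arrays, so the columns of differences are not independent.

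Of the 5 measured angiotensin-forming enzymes, 3 had a higher mean in IZ than in NIZ and 5 in BZ, with median differences of 0.01 and 0.06. Over all clusters the medians were -0.01 and 0.00. Ctsa, a carboxypeptidase that cuts angiotensin I, read 9.26, 9.24 and 9.12 in IZ and 8.91, 9.06 and 9.12 in NIZ, a difference of 0.18 (adjusted p = 0.999 from limma) that was 0.12 without NIZ replicate 1. Cma1, mast cell chymase, read 4.79, 4.75 and 4.94 in IZ and 4.46, 4.48 and 4.87 in NIZ. Its difference of 0.22 did not pass (adjusted p = 0.999 from limma) and was 0.35 without NIZ replicate 3. The prorenin receptor Atp6ap2 averaged 8.09 in IZ, 8.22 in BZ and 8.16 in NIZ.

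Of the 8 peptidases that degrade angiotensins, 6 were higher on average in IZ than in NIZ and 6 in BZ, with median differences of 0.07 and 0.03. Prcp, which turns angiotensin II into angiotensin-(1-7), read 8.48, 8.22 and 8.08 in IZ, 8.26, 8.00 and 8.02 in BZ, and 7.57, 7.43 and 8.19 in NIZ. The NIZ arrays of replicates 1 and 2, where Agt was high, thus gave the 2 lowest Prcp values of the 9. The summed signal of the macrophage markers was also lowest there, at 4189 and 3312 against 4449 to 8292 on the other arrays. Their mean log2 level was lowest in NIZ replicate 2 (8.26). In NIZ replicate 1 (8.74) it lay above NIZ replicate 3 (8.52) and BZ replicate 3 (8.60). Single markers went both ways. Lyz2 was lowest on these 2 arrays, while Cd14 in NIZ replicate 1 (9.04) was below BZ replicate 1 (9.27) only. The part of these markers in the Prcp values was not tested. The IZ-minus-NIZ difference of Prcp was 0.53, or 1.44-fold (adjusted p = 0.999 from limma), and NIZ replicate 3 lay within the IZ values. Mme (neprilysin) read 5.71, 6.10 and 6.04 in BZ and 5.96, 6.28 and 6.60 in NIZ, a difference of -0.33 (adjusted p = 0.854 from limma) that was -0.17 without NIZ replicate 3.

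Of the 7 other angiotensin and aldosterone genes, 2 were higher on average in IZ and 5 in BZ, with median differences of -0.03 and 0.07. Mrgprd, a gene of this list, averaged 3.79 in BZ, 3.61 in NIZ and 3.575 in IZ, all below the array medians. Its BZ arrays lay above those of NIZ and IZ without overlap. Neither difference passed (adjusted p = 0.854 against NIZ and 0.943 against IZ from limma). Hsd11b1, which regenerates active glucocorticoid, read 5.82, 6.12 and 5.53 in BZ and 6.12, 6.27 and 6.30 in NIZ. The difference of -0.41 did not pass (adjusted p = 0.854 from limma) and was -0.26 without BZ replicate 3. Nr3c2 was 0.19 higher in IZ than in NIZ (adjusted p = 1.0 from limma), with overlapping arrays, and the difference was -0.0894 without NIZ replicate 1. Of the 5 kinin genes, whose peptides Ace degrades, 2 were higher and 2 lower in IZ, 1 had the same mean, and 4 were higher in BZ, with medians of 0.00 and 0.02. Klk1, a kallikrein that forms kinins, read 3.81 on all arrays but BZ replicates 2 and 3 (4.07 and 3.82). Bdkrb1, the inducible kinin receptor, lay between 4.31 and 4.59 on the 9 arrays, with a mean IZ-minus-NIZ difference of -0.07.

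Of the 13 measured genes of AT1 receptor signalling, 7 were higher on average in IZ and 7 in BZ, with medians of 0.01 in both. Rgs2, which restrains Gq signalling, read 7.40, 7.82 and 7.62 in BZ and 6.79, 7.44 and 7.68 in NIZ, a difference of 0.31 (adjusted p = 0.857 from limma) that was 0.0516 without NIZ replicate 1. Plcb4, a phospholipase C, read 8.41, 8.57 and 8.21 in BZ and 8.73, 8.76 and 8.55 in NIZ, a difference of -0.28 (adjusted p = 0.854 from limma). Of the 12 genes known to be induced by angiotensin II, 7 were higher in IZ and 5 in BZ, with medians of 0.01 and -0.04. Acta1, skeletal alpha-actin of the hypertrophic response, read 10.35, 10.18 and 9.996 in BZ, 11.08, 11.19 and 10.69 in NIZ, and 11.23, 10.99 and 10.71 in IZ. Its BZ arrays lay below all others, by a mean of 0.82 against NIZ (adjusted p = 0.854 from limma). Cybb, the phagocyte oxidase subunit, read 9.14, 8.92 and 8.27 in IZ and 8.33, 7.89 and 7.80 in NIZ, a difference of 0.77 (adjusted p = 0.999 from limma). The summed signal of the 8 macrophage markers, cells that express Cybb, was 5480 to 7693 in IZ and 3312 to 4449 in NIZ, and its part in the Cybb values was not tested.

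**Figure D5:**
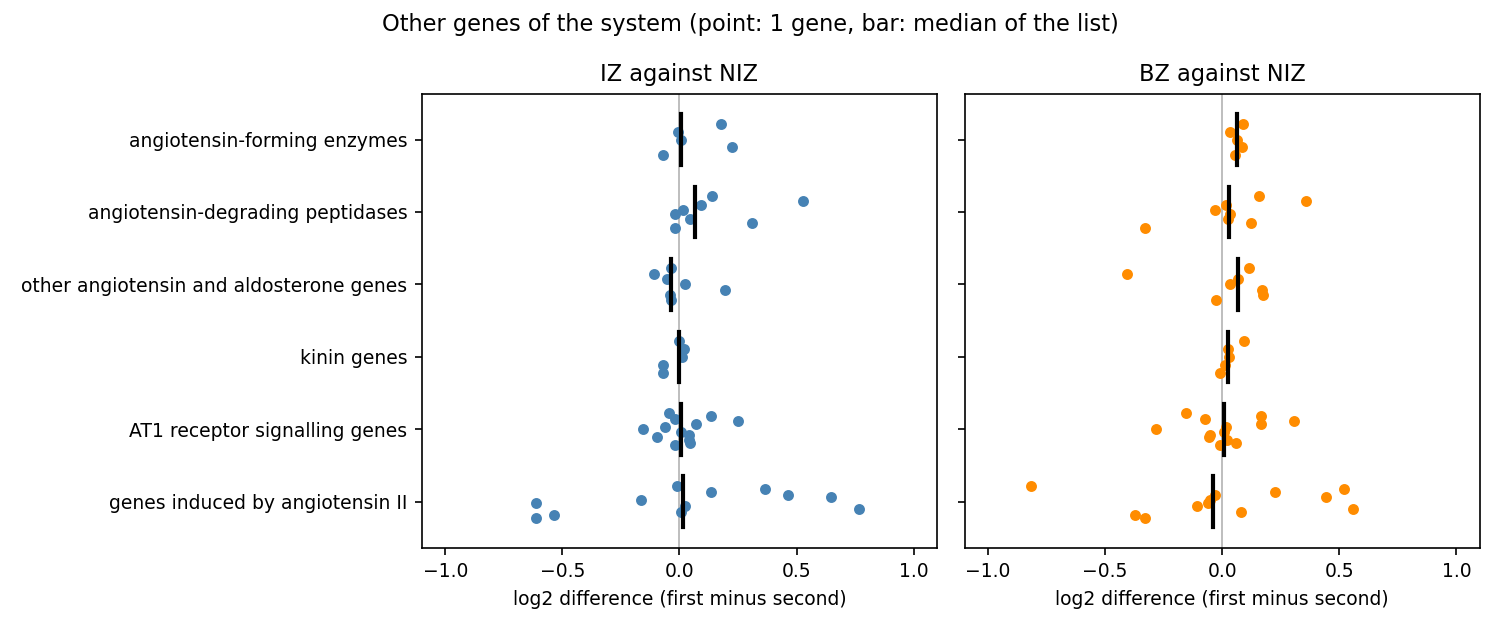
Log2 difference from NIZ (x axis) of the 50 measured genes of 6 lists (y axis), for IZ (left) and BZ (right). Each point is 1 gene and each black bar the median of its list. The medians lie between -0.04 and 0.07, and the genes induced by angiotensin II spread the most.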

How the data were processed

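The deposited values are log2 levels of transcript clusters on GeneChip Mouse Transcriptome Assay 1.0 arrays (biotin label, 1 colour), which the authors made with RMA. Per the labels, Affymetrix Expression Console 1.0 and Transcriptome Analysis Console 3.0 were used. The genome build of the clusters is not given in the sources used here. The 65534 clusters on 9 arrays have no missing values, and no value was changed before testing. In the platform annotation, 30421 clusters have 1 gene symbol, 2139 several and 32974 none, and only the first kind was named. RefSeq tables (GRCm38.p6) gave gene types, neighbours and promoters, with promoters for 5 of the 6 measured members.

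The 3 zones were compared in limma 3.58.1 (R 4.3.3), with all 9 arrays in 1 model, neither block nor filter, and p-values adjusted by Benjamini and Hochberg's method across the clusters (threshold 0.05). The model was run on simulated data with independent noise on each array. Those data hold no replicate structure, so the run says nothing about the effect of such structure. No set test was run. The members, the lists and the tests were chosen with earlier results of these data known. Named list genes are the 2 of each list with the largest difference from NIZ in either zone, other genes were named after their values were seen, and similar clusters were ranked by Pearson r among those with at least 0.5 of a member's range.

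After subtracting zone means, BZ and NIZ arrays of the same number correlated over clusters (0.618, 0.204 and 0.516), against -0.533 to 0.019 for different numbers. Pairs of the same number that include IZ gave values down to 0.0632. The main model used no pairing, and the replicate number entered the fit only in the block alternatives. Alternatives tried concerned the block (replicate number as a fixed or random term), the scaling (median centring or quantile normalization), the clusters (33293 left by a filter on dim ones, or those with 1 gene symbol), the variance (trended and robust, or array weights), the samples (2 zones in the fit, 1 array or 1 number left out) and the methods' test. Precision rests on 3 arrays per zone.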

Additional observations from a re-analysis of the deposited data

How the results depend on the processing

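With the replicate block (the number as a fixed term), 0 members and 0 clusters were called in each comparison, and the lowest adjusted p of a member was 0.876, 0.777 and 0.847 in IZ against NIZ, BZ against NIZ and IZ against BZ. The number of members called stayed at 0 under every alternative run, and the lowest adjusted p of a tested member was 0.673. All clusters called numbered 0 to 216 in IZ against NIZ and 0 to 173 in BZ against NIZ when 1 array or number was left out, with the highest counts without NIZ replicate 3 and 68 and 65 without replicate number 3. The methods' test without adjustment over clusters gave 406, 574 and 447 clusters in the 3 comparisons.

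The difference of Agt kept its sign throughout, at -1.13 to -0.39 in IZ and -1.33 to -0.59 in BZ against NIZ when an array or number was left out. Agt was selected on these levels, so its sign is a description and not a test. Of 387 member differences under alternatives, 344 kept their sign and their side of the threshold and 43 changed sign. With 1 array or number left out, the IZ-minus-NIZ difference ran from -0.31 to 0.15 for Ace, -0.0564 to 0.31 for Agtr1a, -0.0067 to 0.0061 for Agtr2 and -0.0342 to 0.0897 for Agtrap. BZ minus NIZ ran from -0.30 to 0.29 for Ace, -0.0819 to 0.33 for Agtr1a, -0.0546 to 0.12 for Agtrap and -0.0163 to 0.0012 for Mas1. IZ minus BZ ran from -0.33 to 0.26 for Ace, -0.19 to 0.19 for Agtr1a, -0.0794 to 0.0907 for Agtrap and -0.0318 to 0.0101 for Mas1. Among the 263 differences of other named genes, 3 changed sign, for Nr3c2 (-0.0894 to 0.39) and Bdkrb1 (-0.14 to 0.0356) in IZ against NIZ. Median centring turned Agtr2 in IZ against NIZ (0.0235) and, in IZ against BZ, Ace (0.0232), Agtrap (0.0305) and Mas1 (0.0144). Quantile normalization turned Agtr2 (0.0284) and Mas1 (0.00065) in IZ against NIZ and Mas1 in IZ against BZ (0.0060). Array weights turned Agtr2 (0.0036) and Agtrap (-0.0083) in IZ against NIZ, Ace in BZ against NIZ (0.0179) and Agtr1a in IZ against BZ (-0.0030). The cause of these changes was not tested.

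Each measured member has 1 cluster, so the alternative of another cluster of the same gene was not run. Agtr2 and Mas1 have no value under the filter on dim clusters. The number of arrays limits what can be seen, and how far each cluster stood above background was not analysed.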
